A study of Mus musculus with 16 samples.

Results

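The genes described here are 37 mouse genes of DNA replication and nucleotide supply, measured in embryonic stem (ES) cells. They license replication origins, form and activate the replicative helicase, load the sliding clamp, synthesise and join DNA, or make deoxynucleotides. Members were taken as every array probe whose platform gene symbol is 1 of the 37. Of the 37 genes, 34 had a probe, and Gins1, Gins2 and Rfc3, which no probe named, are not analysed here. The 34 genes had 57 of the 25697 probes. Probes went into the tests when 3 or more of the 12 cultures had a detection p-value below 0.01, which held for 51 member probes of 32 genes, among 13377 probes of 9107 genes in all. Orc1, an origin recognition subunit, and Pola1, the catalytic subunit of DNA polymerase alpha, were detected on 0 of the 16 arrays and were not tested.

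The study compared 4 groups of 3 ES cell cultures, and the third culture of each group was measured on 2 arrays. Wild-type cells of the CCE line were left untreated or were given, for 24 h, either sodium chlorate (20 mM), which blocks sulfation, or SU5402 (5 µM), an inhibitor of FGF receptors. The fourth group was Ndst1/2-/- ES cells without treatment, which lack both of these N-deacetylase/N-sulfotransferases and so a first step in making sulfated heparan sulfate. All 4 groups were grown without feeder cells on gelatin, in medium with LIF and 15% serum. The labels give CCE only for the wild-type cells, so the effects of the deletions and of a difference between cell lines cannot be told apart. No probe named Ndst1 or Ndst2, so the deletions were not checked on their own genes.

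Eukaryotic cells load the MCM helicase onto origins in G1 phase and activate it in S phase, after which polymerases copy both strands behind it. Many genes of this machinery, and of the enzymes that make deoxynucleotides, are transcribed around the passage from G1 into S phase under the control of E2F factors. Mouse ES cells have a short G1 phase and spend much of their cycle in S phase.

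Values are log2 bead intensities after background correction, an offset of 16 and quantile normalization. The offset makes fold changes of dim probes too small, and levels were not compared between genes because probes differ in brightness. Differences are given with their moderated standard error (SE) from a single limma fit of the 4 groups. A probe was called higher or lower at a Benjamini-Hochberg adjusted p under 0.05 over all 13377 tested probes of a comparison. Each gene stands by its brightest tested probe. Arrays detected 12022 to 12821 probes each, and the 32 genes' probes were detected on all 16 arrays. By mean intensity the arrays fell into a brighter set A (412 to 454) and a dimmer set B (369 to 400), and each set held 2 arrays of every group. The 2 arrays of a culture differed about as much (SD of the log2 difference 0.176 to 0.190) as 2 cultures of a group (0.170 to 0.203), so the p-values measure the spread between these cultures, which may be technical.

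All 10 ES cell markers, Pou5f1 and Nanog among them, were detected on every array of the 4 groups. They summed to 58561 to 59445 in untreated cultures, 62315 to 66923 with chlorate, 62667 to 65021 with SU5402 and 64385 to 66715 in Ndst1/2-/- cultures. Against untreated cells 5 were higher and 2 lower in Ndst1/2-/- cells (70%, beside 64.3% of all genes). With each treatment 6 were higher and 2 lower (80%, beside 30% of all genes with chlorate and 25.2% with SU5402). Of 7 fibroblast markers with a probe, Col1a2, Col3a1, Pdgfrb and Postn were detected on 0 arrays. The summed intensity of the 7 was 125 to 149 in untreated cultures, 97.0 to 118 with chlorate, 85.3 to 118 with SU5402 and 47.0 to 48.1 in Ndst1/2-/- cultures, where 7 of 7 were detected on 0 arrays. The 7 primitive endoderm markers summed to 2135 to 2329 in untreated cultures, 2823 to 2856 with chlorate, 2716 to 2787 with SU5402 and 3225 to 3362 in Ndst1/2-/- cultures, with Foxa2 and Sox17 detected on 0 arrays of any group and Gata4, Gata6 and Pdgfra on 0 Ndst1/2-/- arrays. The 5 neuroectoderm markers summed to 302 to 368, 333 to 380, 383 to 437 and 216 to 241 in the same order, with Pax6 and Sox1 detected on 0 arrays. Of the 5 tested primitive endoderm markers, 1 was higher and 3 lower in Ndst1/2-/- than in untreated cells (80%, beside 64.3% of all genes, median -0.52). The higher sum thus did not hold for most of them. With each treatment 2 were higher and 1 lower (60%, beside 30% of all genes with chlorate and 25.2% with SU5402). The part of these shifts in the results was not tested.

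Ndst1/2-/- cells had higher signals for much of the replication machinery than untreated wild-type cells. Of the 32 tested genes 17 were higher and 5 lower, with a median log2 difference of 0.17 (-0.004 over all genes). The largest difference was in Rrm2, the small subunit of ribonucleotide reductase, at 2.32-fold. Next among the genes called higher were the helicase gene Gins3 (1.63-fold), the licensing factor gene Cdt1 (1.57-fold), the polymerase alpha gene Pola2 (1.54-fold) and the thymidine kinase gene Tk1 (1.54-fold). Those lower were Rpa1, which coats single-stranded DNA (1.61-fold), the clamp loader gene Rfc5 (1.45-fold), the polymerase delta gene Pold2 (1.36-fold), Rfc4 and Mcm10. In bulk RNA, a changed share of cells in a given phase of the cycle and a changed amount of RNA per cell cannot be told apart.

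The background of this comparison was high. Of all tested genes 64.3% were called, 30.5% higher and 33.8% lower, so the share of members called (68.8%) lay near the background. At least 2-fold, 9.64% of all genes were called and 1 member, Rrm2. In 19 members all 3 Ndst1/2-/- cultures lay above all 3 untreated cultures, and in 7 below (33% and 36.2% of all genes). A moderated F-test over the 4 groups called 22 of the 32 members, beside 71.3% of all genes. The mean was highest in Ndst1/2-/- cells for 20 of the 32. This was counted for the members only, so it has no share of all genes beside it and does not set them apart. Within array set A the call counts were 13 higher and 4 lower, and within set B 12 and 4. Without 1 culture at a time 14 to 17 members were called higher and 3 to 5 lower. The lower count was 3 without Ndst1/2-/- culture 1.

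**Figure D1:**
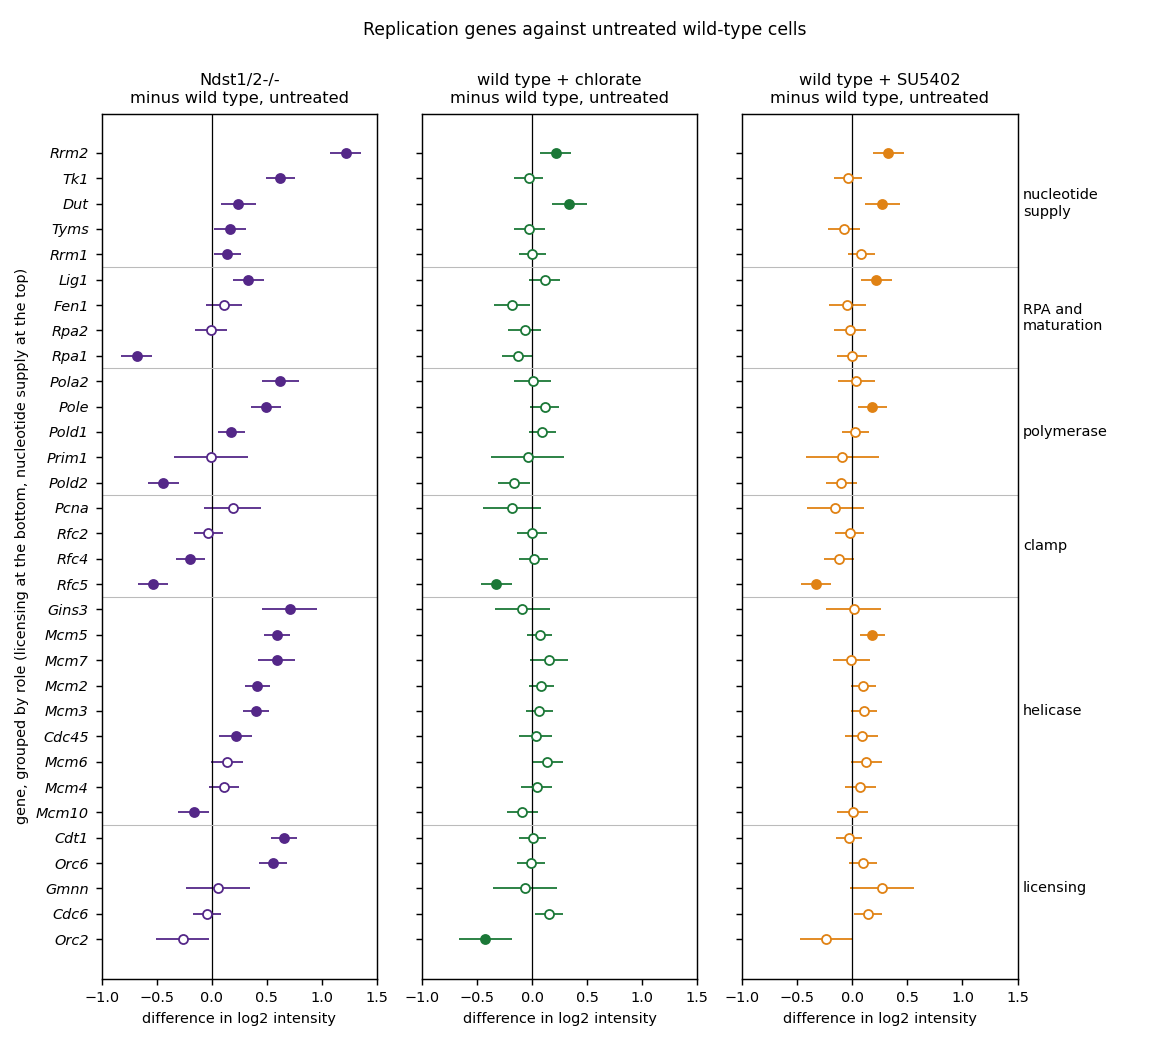
Difference in log2 intensity from untreated wild-type cells (x axis) for each of the 32 tested genes (y axis, grouped by role) in Ndst1/2-/- cells, with chlorate and with SU5402, with 95% confidence intervals, and filled points for called genes (3 cultures per group). In Ndst1/2-/- cells 17 points are called to the right of 0 and 5 to the left, against 2 and 2 with chlorate and 5 and 1 with SU5402.

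Promoters were read because genes of S phase often carry binding sites for E2F factors near their start. RefSeq promoters (mouse build GRCm38.p6, 250 bases before to 50 after the start) were in the table for 31 of the 37 members. An E2F-type motif was searched on both strands as TTNNCGC, where each N is C or G. At least 1 match lay in the promoters of 18 of 31 members (58.1%), against 10.9% of 27025 genes, and 9.57% of all 32851 promoter sequences of this length held one. CCAAT, searched on both strands, was in 20 members (64.5%) and in 41.1% of all genes, and the motifs can share letters. The genes were not matched on base composition.

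By the call in Ndst1/2-/- against untreated cells, a match was present in 9 of 16 members higher in Ndst1/2-/- cells (56.2%), in 1 of 5 lower (20.0%) and in 5 of 7 not called (71.4%). Mcm6, which was not called, held 5 matches, while Tk1, Tyms, Dut, Pola2, Orc6, Cdc45 and Mcm2, which were higher, held 0 in this window. The promoters of the 6 members with a match and the largest called differences are shown so that the matches, in capitals, can be seen in place. Matches on opposite strands overlap in Mcm5, Mcm7 and Mcm3, where they run on as 1 stretch of capitals.
Rrm2: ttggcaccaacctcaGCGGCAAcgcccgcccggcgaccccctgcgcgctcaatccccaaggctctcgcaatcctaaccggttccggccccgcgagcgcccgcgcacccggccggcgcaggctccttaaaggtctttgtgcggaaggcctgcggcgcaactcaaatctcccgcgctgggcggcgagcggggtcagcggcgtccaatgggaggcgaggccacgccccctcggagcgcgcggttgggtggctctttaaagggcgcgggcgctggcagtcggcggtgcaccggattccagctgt
Gins3: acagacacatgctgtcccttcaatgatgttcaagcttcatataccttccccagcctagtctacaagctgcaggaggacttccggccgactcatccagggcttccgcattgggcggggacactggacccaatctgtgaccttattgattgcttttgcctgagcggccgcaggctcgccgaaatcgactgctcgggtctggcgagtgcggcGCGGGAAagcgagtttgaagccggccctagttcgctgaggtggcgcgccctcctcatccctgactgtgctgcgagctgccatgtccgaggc
Cdt1: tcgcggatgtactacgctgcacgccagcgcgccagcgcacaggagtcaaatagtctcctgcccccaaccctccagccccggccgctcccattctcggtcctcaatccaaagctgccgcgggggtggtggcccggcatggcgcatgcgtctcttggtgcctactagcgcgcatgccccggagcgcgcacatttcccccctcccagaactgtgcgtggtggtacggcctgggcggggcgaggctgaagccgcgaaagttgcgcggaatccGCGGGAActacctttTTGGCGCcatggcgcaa
Mcm5: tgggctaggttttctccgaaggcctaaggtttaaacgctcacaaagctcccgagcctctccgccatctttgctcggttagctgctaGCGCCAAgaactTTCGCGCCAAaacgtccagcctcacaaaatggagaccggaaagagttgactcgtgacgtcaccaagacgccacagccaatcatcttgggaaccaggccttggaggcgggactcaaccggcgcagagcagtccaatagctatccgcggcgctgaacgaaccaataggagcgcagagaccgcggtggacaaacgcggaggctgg
Mcm7: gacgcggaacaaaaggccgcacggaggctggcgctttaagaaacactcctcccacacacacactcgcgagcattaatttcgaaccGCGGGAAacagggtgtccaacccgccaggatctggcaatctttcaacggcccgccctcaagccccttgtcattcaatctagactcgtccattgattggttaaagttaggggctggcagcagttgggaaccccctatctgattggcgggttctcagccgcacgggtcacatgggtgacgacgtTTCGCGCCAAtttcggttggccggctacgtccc
Mcm3: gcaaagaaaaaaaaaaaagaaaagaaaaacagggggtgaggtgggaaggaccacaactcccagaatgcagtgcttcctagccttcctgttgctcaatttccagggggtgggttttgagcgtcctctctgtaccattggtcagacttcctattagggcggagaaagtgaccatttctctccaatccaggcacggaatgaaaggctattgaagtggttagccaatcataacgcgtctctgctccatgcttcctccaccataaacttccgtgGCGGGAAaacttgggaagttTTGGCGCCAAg
The Rrm2 promoter lies at chr12:24708004-24708303 on the plus strand, with its match beginning 235 bases before the start. That of Gins3, at chr8:95633309-95633608 on the plus strand, has its match 41 bases before the start, and that of Cdt1, at chr8:122567765-122568064 on the plus strand, has matches 19 and 34 bases after it. In Mcm5 (chr8:75109259-75109558, plus strand) the matches begin 164, 152 and 149 bases before the start. In Mcm7 (chr5:138171834-138172133, minus strand, 1 of 2 promoters in the table) they begin 165 bases before and 18 and 21 after it, and in Mcm3 (chr1:20820263-20820562, minus strand) 20, 40 and 43 bases after it. A match of these letters is a description of the sequence and not a measured binding site.

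Of the 9 tested genes of the helicase and its activation, 6 were higher in Ndst1/2-/- cells and 1 was lower (median 0.40). That is 77.8% called, beside 64.3% of all genes (30.5% higher and 33.8% lower). Mcm5, a subunit of the MCM ring, read 12.16, 12.21 and 12.21 in the untreated cultures and 12.77, 12.84 and 12.74 in the Ndst1/2-/- cultures. Its values were 12.23, 12.29 and 12.26 with chlorate and 12.31, 12.43 and 12.38 with SU5402. The Ndst1/2-/- cultures lay above all others, by 0.59 ± 0.05 over untreated cells (n = 3 cultures per group; limma, adjusted p = 8.60e-07). Mcm7, another ring subunit, read 8.83, 8.51 and 8.74 untreated and 9.32, 9.27 and 9.25 in Ndst1/2-/- cells, against 8.57 to 8.88 in the 6 treated cultures. It also separated fully, by 0.59 ± 0.08 (limma, adjusted p = 2.69e-05), although its untreated cultures were spread more widely.

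Gins3, a subunit of the GINS complex that joins Cdc45 and the MCM ring in the active helicase, had the largest difference of the helicase genes. It read 6.88, 6.94 and 6.73 untreated, 6.99, 6.54 and 6.76 with chlorate, 6.77, 6.81 and 7.01 with SU5402, and 7.39, 7.60 and 7.69 in Ndst1/2-/- cells. The lowest Ndst1/2-/- culture lay above every wild-type culture, and the difference from untreated cells was 0.71 ± 0.11 (limma, adjusted p = 0.000140). Mcm2 (0.41 ± 0.05; 10.79 to 10.89 untreated and 11.23 to 11.25 in Ndst1/2-/- cells) and Mcm3 (0.40 ± 0.05; 9.22 to 9.27 and 9.58 to 9.72) were also higher without overlap.

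Not all ring genes passed the test. Mcm4, with 3 tested probes, and Mcm6, with 4, had 0 probes called against untreated cells, with differences of 0.11 ± 0.06 and 0.14 ± 0.07 for the brightest. Their 95% intervals were -0.03 to 0.25 and -0.004 to 0.28. Mcm4 was called without untreated culture 1 (0.17, adjusted p = 0.0346) and Mcm6 without chlorate culture 2 (0.14, adjusted p = 0.0425), in the same limma fit. Cdc45 was higher by 0.22 ± 0.07, a call lost without untreated culture 1 (limma, adjusted p = 0.0590) or Ndst1/2-/- culture 3 (0.0617). Mcm10, which takes part in helicase activation, was lower on both of its probes (-0.16 ± 0.07 and -0.18 ± 0.07). The call of the brighter probe was lost without any 1 of 9 cultures (limma, adjusted p 0.0528 to 0.180) and kept without untreated culture 2, chlorate culture 2 or chlorate culture 3.

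In origin licensing 2 of 5 tested genes were higher and 3 were not called (median 0.06). The share called (40%) was below that of all genes (64.3%). Cdt1, which brings the MCM ring to origins, read 11.36, 11.41 and 11.33 untreated, 11.38, 11.40 and 11.33 with chlorate, 11.25, 11.36 and 11.39 with SU5402, and 11.997, 12.039 and 12.023 in Ndst1/2-/- cells. The 9 wild-type cultures overlapped and the Ndst1/2-/- cultures stood apart, by 0.66 ± 0.06 over untreated cells (limma, adjusted p = 3.88e-07). Orc6, the smallest subunit of the origin recognition complex, read 11.36, 11.26 and 11.24 untreated and 11.84, 11.82 and 11.87 in Ndst1/2-/- cells (0.56 ± 0.06; 11.20 to 11.44 in the treated cultures). It too lay above every wild-type culture.

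The other licensing genes gave no call against untreated cells. Geminin (Gmnn), which holds Cdt1 inactive outside G1 phase, had the widest error of them (0.06 ± 0.13, 95% interval -0.23 to 0.35). Cdc6, which works with Cdt1, differed by -0.04 ± 0.06 on its brightest probe and by 0.32 ± 0.14 and 0.32 ± 0.24 on 2 dimmer ones. Orc2, a core subunit of the origin recognition complex, read 5.81, 5.70 and 5.76 untreated and 5.54, 5.28 and 5.65 in Ndst1/2-/- cells. All 3 lay below the untreated cultures, but the difference of -0.26 ± 0.11 was not called (limma, adjusted p = 0.0535). It passed in 8 of 25 alternatives, among them without Ndst1/2-/- culture 3 (0.0249), SU5402 culture 1 (0.0310) or SU5402 culture 2 (0.0326), and with the authors' processed values (-0.56; 0.0160).

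The clamp and clamp loader genes held 2 of the 5 decreases and no increase among 4 tested (median -0.11). That is 50% called, beside 64.3% of all genes (33.8% lower), so these few genes do not stand out. Rfc5, a subunit of the complex that places PCNA on DNA, read 10.67, 10.72 and 10.63 untreated, 10.37, 10.38 and 10.30 with chlorate, 10.22, 10.43 and 10.37 with SU5402, and 10.09, 10.15 and 10.18 in Ndst1/2-/- cells. All 9 cultures of the other groups lay below the untreated ones, and the Ndst1/2-/- cultures lay lowest, by -0.53 ± 0.06 (limma, adjusted p = 9.72e-06). Rfc4, from the same complex, was lower by -0.20 ± 0.06 on its brighter probe, while the other (-0.21 ± 0.10) was not called. The call was lost without untreated culture 2 (limma, adjusted p = 0.0534) or Ndst1/2-/- culture 1 (0.0528). Rfc2 differed by -0.03 ± 0.06. The gene of the clamp itself, Pcna, read 9.57, 9.61 and 9.47 untreated and 9.60, 9.73 and 9.89 in Ndst1/2-/- cells, which overlapped (0.19 ± 0.12).

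Of 5 tested polymerase genes, 3 were higher, 1 was lower and 1 was not called (80% called, beside 64.3% of all genes, median 0.18). Pola2, the second subunit of polymerase alpha, which starts each new strand, read 8.59, 8.62 and 8.50 untreated, 8.52, 8.63 and 8.58 with chlorate, 8.67, 8.67 and 8.49 with SU5402, and 9.04, 9.27 and 9.26 in Ndst1/2-/- cells. It was higher by 0.62 ± 0.08 (limma, adjusted p = 1.38e-05), with no overlap with any wild-type culture. Pole, the catalytic subunit of the leading-strand polymerase epsilon, was higher by 0.49 ± 0.06, from 8.75, 8.79 and 8.89 untreated to 9.32, 9.28 and 9.31.

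For polymerase delta, which copies the lagging strand, the catalytic gene Pold1 was higher and the accessory gene Pold2 lower. Pold2 read 10.61, 10.44 and 10.65 untreated, 10.32, 10.48 and 10.41 with chlorate, 10.50, 10.45 and 10.45 with SU5402, and 10.11, 10.14 and 10.13 in Ndst1/2-/- cells. The last 3 were the lowest of the 12 (-0.44 ± 0.07; limma, adjusted p = 6.64e-05). Pold1 was higher by 0.18 ± 0.06, a call lost without untreated culture 1 (limma, adjusted p = 0.0534), untreated culture 3 (0.0501) or Ndst1/2-/- culture 3 (0.0508). Prim1, the catalytic primase subunit, differed by -0.01 ± 0.15, and its wide spread in the SU5402 cultures (6.99, 6.97 and 7.56) and in the Ndst1/2-/- cultures (7.01, 7.27 and 7.49) leaves a 95% interval of -0.34 to 0.33.

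The genes of single-strand binding and strand joining gave 1 higher, 1 lower and 2 not called of 4 (median 0.05). That is 50% called, beside 64.3% of all genes. Rpa1, the large subunit of the complex that coats single-stranded DNA, had the largest decrease of the members. It read 12.89, 12.91 and 12.86 untreated, 12.83, 12.64 and 12.80 with chlorate, 12.94, 12.86 and 12.85 with SU5402, and 12.29, 12.14 and 12.18 in Ndst1/2-/- cells. The difference from untreated cells was -0.68 ± 0.06 (limma, adjusted p = 1.06e-06), with every Ndst1/2-/- culture below every wild-type one. Its partner Rpa2 differed by -0.01 ± 0.07 and 0.04 ± 0.11 on 2 probes, with 0 called. Lig1, the ligase that seals Okazaki fragments, was higher by 0.33 ± 0.06 (10.61, 10.80 and 10.69 untreated, and 10.97, 11.11 and 11.01 in Ndst1/2-/- cells), and 3 of its 4 probes were called. Fen1, the nuclease that trims those fragments, lay above the untreated cultures (11.48 to 11.49, against 11.35 to 11.41) but was not called (0.11 ± 0.08).

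All 5 genes of nucleotide supply were higher in Ndst1/2-/- cells than in untreated ones (median 0.24), beside 30.5% of all genes. Rrm2, the small subunit of the reductase that makes deoxynucleotides from ribonucleotides, read 8.65, 8.53 and 8.61 untreated, 8.85, 8.87 and 8.71 with chlorate, 8.89, 8.98 and 8.90 with SU5402, and 9.80, 9.74 and 9.88 in Ndst1/2-/- cells. The Ndst1/2-/- cultures stood far above the rest, by 1.21 ± 0.06 over untreated cells (limma, adjusted p = 5.07e-09), and its second probe gave 1.10 ± 0.08. Tk1, which salvages thymidine, read 9.48, 9.41 and 9.52 untreated, 9.38, 9.52 and 9.41 with chlorate, 9.43, 9.43 and 9.41 with SU5402, and 10.16, 10.07 and 10.03 in Ndst1/2-/- cells. Here the wild-type cultures lay together and the Ndst1/2-/- cultures above them, by 0.62 ± 0.06 (limma, adjusted p = 1.31e-06) and by 0.56 ± 0.08 on a second probe.

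The other 3 supply genes had smaller differences. Tyms, which makes thymidylate from deoxyuridylate, was higher on all 5 of its tested probes, by 0.16 to 0.51. The brightest gave the smallest value (0.16 ± 0.07), and its call was lost without any 1 of 9 cultures (limma, adjusted p 0.0503 to 0.182), being kept without untreated culture 1, Ndst1/2-/- culture 3 or SU5402 culture 3. Rrm1, the large reductase subunit, was higher by 0.14 ± 0.06, which was lost without any untreated culture, Ndst1/2-/- culture 1 or 3, or SU5402 culture 1 or 3 (limma, adjusted p 0.0510 to 0.111). Dut, the enzyme that removes dUTP and so keeps uracil out of DNA, was higher by 0.24 ± 0.07 and kept its call without each single culture. Dut lost the call within array set A (limma, adjusted p = 0.0630) and within set B (0.0811). Without each single culture, 16 of the 22 member calls of this comparison were kept.

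**Figure D2:**
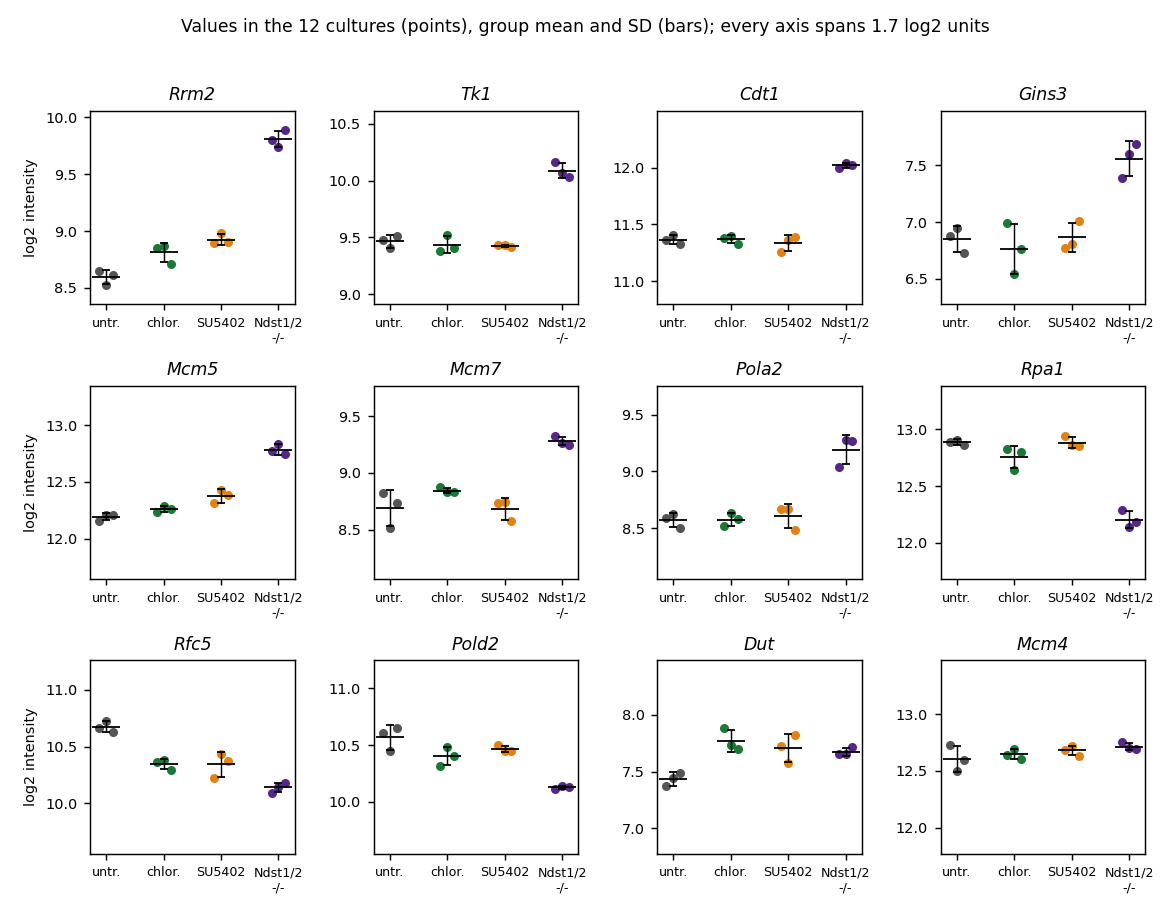
Log2 intensity (y axis) of 12 of the genes in each of the 12 cultures (points) by group (x axis), with the mean and SD of the 3 cultures as bars, on axes that all span 1.7 log2 units. Rrm2 rises from 8.53 to 8.65 in untreated cultures to 9.74 to 9.88 in Ndst1/2-/- cultures, Rpa1 falls from 12.86 to 12.91 to 12.14 to 12.29, and Mcm4 overlaps across the groups.

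Of the 51 member probes 25 were called higher and 6 lower in Ndst1/2-/- cells, beside 30.4% and 32.2% of all probes. Both probes of Rrm2 and of Tk1 and all 5 of Tyms were higher, and both of Mcm10 were lower. Probes of Lig1 and of Rfc4 were split between called and not called, with the same sign. Probes of Cdc6 and of Rpa2 fell on both sides of 0, the brightest just below it, with 0 called.

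**Figure D3:**
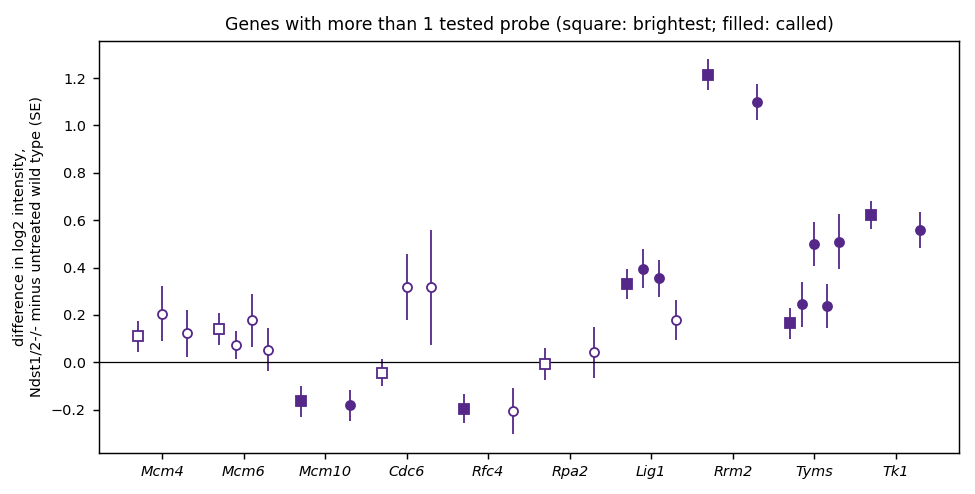
Difference in log2 intensity between Ndst1/2-/- and untreated wild-type cells (y axis, bars SE) for every tested probe of the 10 genes with more than 1 (x axis), with squares for the brightest probe and filled marks for called probes. Both Rrm2 probes lie above 1 and all 5 Tyms probes above 0, while the 3 Cdc6 probes fall on both sides of 0.

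Chlorate changed few of these genes within 24 h. Against untreated wild-type cells, 2 of 32 were higher and 2 lower (12.5%, beside 30% of all genes, 15.3% higher and 14.8% lower), and the median difference was 0.00 for the members and -0.004 for all genes. The genes called higher were Dut (0.34 ± 0.07; limma, adjusted p = 0.00427) and Rrm2 (0.22 ± 0.06; adjusted p = 0.0241), and those called lower were Rfc5 (-0.32 ± 0.06; adjusted p = 0.00215) and Orc2 (-0.42 ± 0.11; adjusted p = 0.0121). Dut read 7.88, 7.73 and 7.70 with chlorate, against 7.37, 7.44 and 7.49 untreated, with no overlap. Orc2 read 5.40, 5.22 and 5.38, against 5.81, 5.70 and 5.76, also apart.

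The Rrm2 call with chlorate was weak. Its second probe gave -0.03 ± 0.08 and was not called. The call was lost without chlorate culture 1 (limma, adjusted p = 0.0775), chlorate culture 2 (0.0798), untreated culture 2 (0.0890) or untreated culture 3 (0.0511). Of the 4 calls with chlorate, only that of Rfc5 was kept in every alternative. Orc2 lost its call with the first array of culture 3 only (limma, adjusted p = 0.0715) and within array set A (0.183), and Dut within set B (0.0990). In turn, Mcm6 was called higher without chlorate culture 2 (0.21; adjusted p = 0.0291), Cdc6 higher without chlorate culture 3 (0.19; adjusted p = 0.0493) and Pold2 lower without untreated culture 2 (-0.23; adjusted p = 0.0244), all in the limma fit. Of the genes higher in Ndst1/2-/- cells, those with the next largest differences after Rrm2 were not called with chlorate, with values of 0.00 ± 0.06 for Cdt1, 0.00 ± 0.08 for Pola2, -0.03 ± 0.06 for Tk1, -0.01 ± 0.06 for Orc6, -0.09 ± 0.11 for Gins3, 0.07 ± 0.05 for Mcm5, 0.15 ± 0.08 for Mcm7 and 0.11 ± 0.06 for Pole.

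SU5402 gave 5 genes higher and 1 lower of 32 (18.8%, beside 25.2% of all genes, 12.9% higher and 12.3% lower), with a median of 0.02 (-0.003 over all genes). Rrm2 (0.33 ± 0.06; limma, adjusted p = 0.00278), Dut (0.27 ± 0.07; adjusted p = 0.0174), Mcm5 (0.18 ± 0.05; adjusted p = 0.0273), Lig1 (0.22 ± 0.06; adjusted p = 0.0289) and Pole (0.18 ± 0.06; adjusted p = 0.0476) were higher. Rfc5 was lower (-0.33 ± 0.06; limma, adjusted p = 0.00251). The changes were small: the SU5402 cultures read 10.90, 10.90 and 10.94 for Lig1, against 10.61, 10.80 and 10.69 untreated, and 8.92, 9.03 and 9.03 for Pole, against 8.75, 8.79 and 8.89. In each of these 6 genes the 2 groups did not overlap, as was also the case for 20.4% of all genes on the higher and 20.3% on the lower side.

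With SU5402, 0 of the 6 calls were kept in every alternative. Rrm2 lost its call within array set A (limma, adjusted p = 0.103) and Rfc5 within set B (0.0818). The calls of Rrm2 and Rfc5 were kept without each single culture and the other 4 were not. That of Dut was lost without SU5402 culture 3 (limma, adjusted p = 0.0739) or untreated culture 1 (0.0625). That of Mcm5 was lost without any untreated culture or SU5402 culture 2 or 3 (limma, adjusted p 0.0545 to 0.0981), and that of Lig1 without any SU5402 culture or untreated culture 1 or 3 (0.0558 to 0.104). Pole lost its call without any 1 of 9 cultures (limma, adjusted p 0.0523 to 0.146) and kept it without untreated culture 3, chlorate culture 1 or SU5402 culture 1. The Lig1 call rested on 1 of 4 probes, and the second Rrm2 probe gave 0.19 ± 0.08 without a call. Geminin, whose SU5402 cultures read 7.36, 7.79 and 7.80, was called higher without the first of them (0.42; limma, adjusted p = 0.0311), and Orc2 lower without the second (-0.34; adjusted p = 0.0492).

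Rfc5, Dut and Rrm2 were called in each of the comparisons with untreated cells, which share the same 3 untreated cultures and so are not independent. Rfc5 was lower by 0.53 in Ndst1/2-/- cells, by 0.32 with chlorate and by 0.33 with SU5402 on the log2 scale. Dut was higher by 0.24, 0.34 and 0.27, and Rrm2 by 1.21, 0.22 and 0.33, in the same order. The sizes for Dut were alike within error, since Ndst1/2-/- cells differed from chlorate-treated cells by -0.10 (95% interval -0.26 to 0.06) and from SU5402-treated cells by -0.03 (-0.19 to 0.13).

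The 2 treatments gave no difference that passed the test in these genes. In SU5402-treated against chlorate-treated cells, limma called 0 of 32 (2.87% of all genes), 2 had an unadjusted p under 0.05, and the lowest adjusted p was 0.234, for Gmnn (0.33 ± 0.13). The 95% intervals of 31 genes lay within 0.5 log2 units of 0 and those of 30 included 0. The exceptions were Gmnn, which went past both limits (0.04 to 0.62), and Rfc4, whose interval ended just below 0. The lowest bound of any was -0.38, for Prim1. For Rrm2 the interval was -0.03 to 0.25 and for Mcm5 -0.002 to 0.23. These intervals bound the difference but do not show that chlorate and SU5402 act alike.

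**Figure D4:**
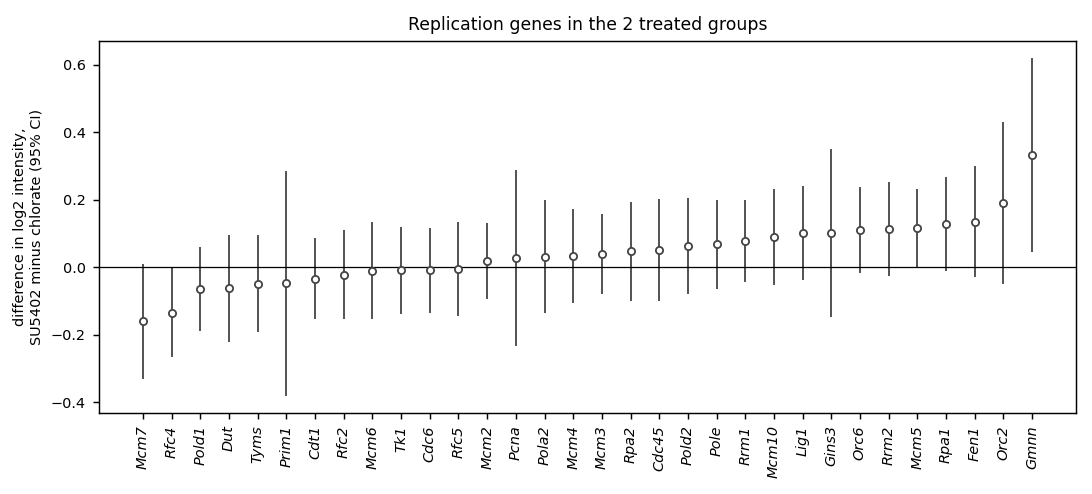
Difference in log2 intensity between SU5402-treated and chlorate-treated wild-type cells (y axis, bars 95% confidence interval) for each of the 32 tested genes (x axis, in order of the estimate). The intervals of 30 genes include 0, those of Gmnn and Rfc4 do not, and the points run from -0.16 for Mcm7 to 0.33 for Gmnn.

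Ndst1/2-/- cultures were also set directly against the treated wild-type cells. Against chlorate 17 of 32 were higher and 5 lower (68.8%, beside 60.6% of all genes, 29.2% higher and 31.3% lower), and against SU5402 14 were higher and 5 lower (59.4%, beside 60.1% of all genes, 28.5% higher and 31.6% lower). The comparisons share the Ndst1/2-/- cultures with each other and with the one against untreated cells. Rrm2 was higher by 1.00 ± 0.06 than with chlorate (limma, adjusted p = 4.07e-08) and by 0.89 ± 0.06 than with SU5402 (adjusted p = 1.27e-07). Cdt1 (0.65 ± 0.06 and 0.68 ± 0.06), Tk1 (0.65 ± 0.06 and 0.66 ± 0.06) and Gins3 (0.80 ± 0.11 and 0.69 ± 0.11) were higher in both, and Rpa1 was lower in both (-0.55 ± 0.06 and -0.68 ± 0.06).

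Pcna, Fen1 and Cdc6, which were not called against untreated cells, were called against treated ones. Pcna was higher than with chlorate by 0.37 ± 0.12 (limma, adjusted p = 0.0186) and than with SU5402 by 0.34 ± 0.12 (adjusted p = 0.0271). Its SU5402 cultures ranged from 9.13 to 9.68 and overlapped with the Ndst1/2-/- cultures. The first call was lost without chlorate culture 2 (limma, adjusted p = 0.0738) or Ndst1/2-/- culture 3 (0.0800), and the second without Ndst1/2-/- culture 2 (0.0549) or 3 (0.109) or SU5402 culture 1 (0.126) or 2 (0.0642). Fen1 was higher than with chlorate (0.29 ± 0.08; limma, adjusted p = 0.00535). Cdc6 was lower than with chlorate (-0.20 ± 0.06; limma, adjusted p = 0.0110) and SU5402 (-0.19 ± 0.06; adjusted p = 0.0143) on 1 of its 3 probes. These were lost without the first chlorate culture (limma, adjusted p = 0.0539) and without the first SU5402 culture (0.0514), and with median scaling both fell short, at -0.05 (0.632) and -0.08 (0.466).

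Other calls against chlorate-treated cells were lost without single cultures in the limma fit. Rrm1 lost its call without any 1 of 11 cultures, chlorate culture 3 being the exception (adjusted p 0.0546 to 0.160). Cdc45 lost it without untreated culture 3, chlorate culture 2 or 3, or Ndst1/2-/- culture 2 or 3 (0.0517 to 0.125), and Tyms without chlorate culture 2 or 3 or Ndst1/2-/- culture 1 or 2 (0.0617 to 0.119). Lig1, which had 4 of 4 probes called, lost it on its brightest without chlorate culture 3 (0.0545) or Ndst1/2-/- culture 2 (0.0531). With each single culture left out, 16 of the 22 calls were kept.

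Against SU5402-treated cells, Mcm10 lost its call without any 1 of 8 cultures in the limma fit (adjusted p 0.0541 to 0.113) and kept it without untreated culture 1 or 2 or chlorate culture 2 or 3. Pold1 lost it without Ndst1/2-/- culture 2 or 3 or SU5402 culture 1 or 2 (0.0554 to 0.132), and Rfc5 without Ndst1/2-/- culture 1 (0.0545) or SU5402 culture 2 (0.0687). Gmnn was called lower without SU5402 culture 1 (-0.36; adjusted p = 0.0242), Cdc45 higher without SU5402 culture 2 (0.20; adjusted p = 0.0289) and Fen1 higher without chlorate culture 2 (0.16; adjusted p = 0.0267). With each single culture left out, 14 of the 19 calls were kept. Rfc5 was lower in Ndst1/2-/- cells than in both treated groups (-0.21 ± 0.06 and -0.20 ± 0.06), with its mean lowest in Ndst1/2-/- cells and highest in untreated ones. With median scaling these differences were -0.06 and -0.09 and were not called (limma, adjusted p = 0.523 and 0.328), and neither was called within array set A (0.0693 and 0.170), nor the first within set B (0.111).

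Further genes of replication and of nucleotide synthesis were read from lists drawn up by function, with earlier results of these data known. Of 27 other tested replication genes 12 were higher and 4 lower in Ndst1/2-/- than in untreated cells (59.3%, beside 64.3% of all genes), with a median of 0.09. Chtf18, part of an alternative clamp loader (0.86 ± 0.06), the fork protection gene Tipin (0.64 ± 0.07) and Dbf4, the activator of the Cdc7 kinase that fires origins (0.61 ± 0.05), were higher, and Pole3, a small subunit of polymerase epsilon, was lower (-0.56 ± 0.06). Cdc7 (-0.01 ± 0.06), Top2a (-0.13 ± 0.07) and Chaf1a (-0.12 ± 0.07) were not called. With chlorate 2 of the 27 were higher and 3 lower (18.5%, beside 30% of all genes), and with SU5402 2 and 2 (14.8%, beside 25.2%).

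Other genes of nucleotide synthesis were mostly lower or not called in Ndst1/2-/- cells. Some of them also serve RNA, and others, such as Rrm2b, serve deoxynucleotides. Of 22 tested, 3 were higher and 12 lower (median -0.19). That is 68.2% called, beside 64.3% of all genes (30.5% higher and 33.8% lower). The guanine nucleotide enzyme gene Impdh1 (-0.93 ± 0.07), the nucleoside diphosphate kinase genes Nme1 (-0.72 ± 0.05) and Nme2 (-0.67 ± 0.06), and Shmt1, which supplies 1-carbon units (-0.67 ± 0.06), were lower. Rrm2b, the reductase subunit used outside S phase, was not called (-0.11 ± 0.07). With chlorate 1 was higher and 5 lower (27.3%, beside 30% of all genes, median -0.11). Among those lower were Dhodh (-0.39 ± 0.06), Adsl (-0.38 ± 0.06), Impdh1 (-0.31 ± 0.07) and Gart (-0.30 ± 0.06). With SU5402 the counts were again 1 and 5 (27.3%, beside 25.2% of all genes, median -0.10), with Dhodh (-0.37 ± 0.06) and Impdh1 (-0.34 ± 0.07) lower. Nme1 and Nme2 are close relatives, and binding of one gene's RNA to the other's probe was not checked.

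**Figure D5:**
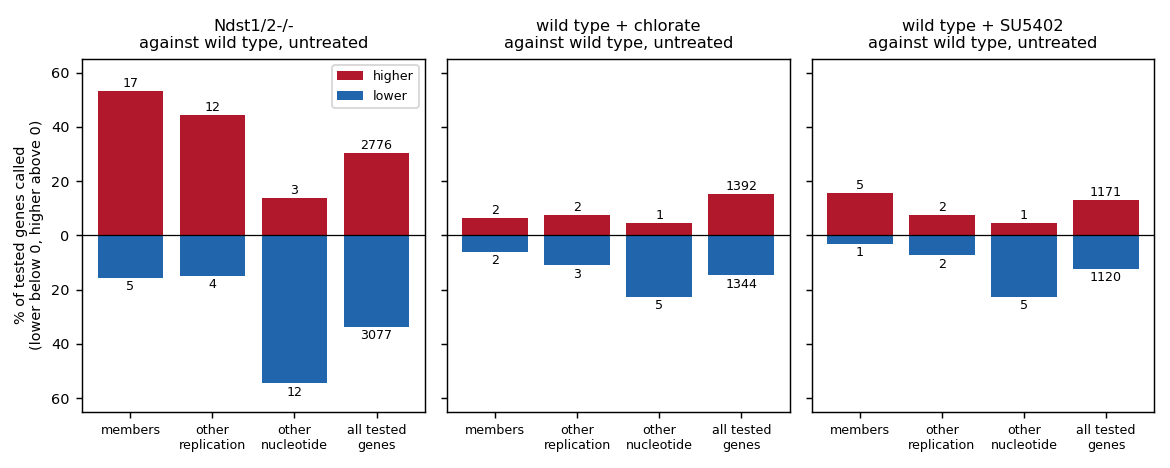
Percent of tested genes called higher (above 0) and lower (below 0) than in untreated wild-type cells (y axis) for the members, the other replication genes, the other nucleotide synthesis genes and all tested genes (x axis), with the number of genes on each bar. In Ndst1/2-/- cells 17 of 32 members are higher and 5 lower, against 3 and 12 of the 22 nucleotide synthesis genes.

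The regulators of entry into S phase and the genes of mitosis are given for setting. In Ndst1/2-/- cells 12 of 21 E2F and G1-S control genes were higher and 7 lower (90.5% called, beside 64.3% of all genes). Among them were E2f2 (0.99 ± 0.08) and the cyclin gene Ccnd3 (0.95 ± 0.06), which were higher, and Cdkn1a, which encodes the cyclin-dependent kinase inhibitor p21, which was lower (-1.06 ± 0.08). With chlorate 5 of the 21 were higher and 10 lower (71.4%, beside 30% of all genes), and with SU5402 4 and 8 (57.1%, beside 25.2%). Both treatments had the opposite sign for E2f2 (-0.83 ± 0.08 with chlorate and -0.71 ± 0.08 with SU5402) and for Cdkn1a (0.54 ± 0.08 and 0.52 ± 0.08). Myc was lower in all 3 comparisons (-1.41 ± 0.09, -1.43 ± 0.09 and -1.43 ± 0.09), being detected on 4 of 4 untreated arrays, 2 of 4 with each treatment and 1 of 4 in Ndst1/2-/- cells. Of 13 mitosis genes 9 were higher and 1 lower in Ndst1/2-/- cells (76.9% called, beside 64.3% of all genes, median 0.40). The kinase gene Plk1 (3.88 ± 0.11) stood apart as the only 1 of the 13 changed at least 2-fold, beside 9.64% of all genes called at that size. With chlorate 2 were higher (15.4%, beside 30% of all genes) and with SU5402 5 (38.5%, beside 25.2%), with 0 lower in either by limma.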

How the data were processed

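RNA of mouse ES cells was measured on Illumina bead arrays, 16 arrays for 12 cultures. The deposited intensities are mean bead intensities per probe, which BeadStudio wrote out, per the submitters' processing notes, with its version not given in the sources used here. They were neither background-corrected nor scaled. Each has a deposited detection p-value, per the file headers. The authors' processed intensities, of unstated normalization, served as an alternative. Intensities were background-corrected from the detection p-values (normexp), offset by 16, quantile-normalized and taken to log2 with neqc in limma 3.58.1 (R 4.3.3). The 2 arrays of culture 3 in each group were averaged.

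Probes detected (p under 0.01) in at least 3 cultures were tested in 1 limma model of the 4 groups (8 residual and 4.37 prior degrees of freedom), with Benjamini-Hochberg adjustment over 13377 probes and a threshold of 0.05. Of the 25697 probes, 23978 had 1 gene symbol and 1719 none in the platform annotation. The steps were tested on simulated data. With no counts, precision rests on the 3 cultures per group. Alternatives were another background correction, offset, scaling, filter and probe rule, the authors' values, array set and replicate blocks, each array set alone, and leaving out arrays or cultures.

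The members and lists were chosen with earlier results of these data known. Every member could be named, and from each other list up to 4 called genes with the largest change and 3 not called per comparison. Promoters came from RefSeq, for up to 6 called members with the largest change that held a match.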

Additional observations from a re-analysis of the deposited data

How the results depend on the processing

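The counts of members called in Ndst1/2-/- against untreated cells stayed within 1.5 times of 17 higher and 5 lower under each alternative other than leaving out single cultures, while the small counts with the treatments moved. With chlorate, 4 members were lower with no background correction or with median scaling, and 1 with the first array of culture 3 only or within array set A. Members higher with chlorate numbered 1 with median scaling, the first array only, set A, the authors' values, the mean of all probes or only the 2 groups compared, and 0 within set B. With SU5402, 2 were higher with median scaling or only the 2 groups compared, 0 within set A and 1 within set B, where 0 were lower. Against chlorate, 1 member was lower in Ndst1/2-/- cells with median scaling, 2 within set A or B and 3 with the mean of all probes. Against SU5402, 2 were lower with median scaling or within set A. Median scaling moved the share of higher calls over all probes from 50.1% to 37.7% with chlorate, and from 49.8% to 60% for Ndst1/2-/- against chlorate, where the median of all probes was 0.08. Only Cdc6 changed sign from a call, from -0.20 to 0.0892 against chlorate with the mean of its probes, of which the 2 dimmer ones lay above 0. Causes of the other changes were not tested.

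Without 1 culture at a time, 19 to 23 members were called by the F-test. The counts were 14 to 17 higher and 3 to 5 lower in Ndst1/2-/- against untreated cells, 1 to 3 and 2 to 3 with chlorate, 1 to 5 and 1 to 2 with SU5402, 0 to 0 in both directions between the treatments, 13 to 16 and 4 to 5 for Ndst1/2-/- against chlorate, and 12 to 15 and 3 to 5 against SU5402. With the replicate number as a block, 16 members were higher and 4 lower in Ndst1/2-/- against untreated cells, 2 and 2 with chlorate and 6 and 1 with SU5402. Same-numbered cultures correlated by 0.075 to 0.19, 0.029 to 0.079 and -0.0094 to 0.14 for numbers 1, 2 and 3. The main fit did not pair cultures by number, although 9 of 12 correlated best with their own number. Numbers 1 and 2 lie in array sets A and B, and what same-numbered cultures share was not tested. Under the replicate block Gmnn was called with all cultures, higher with SU5402 than in untreated cells (0.27; limma, adjusted p = 0.0359) and lower in Ndst1/2-/- than in SU5402-treated cells (-0.21; 0.0446). With 3 cultures per group and signals near background for the dimmest probes, differences larger than a gene's error could also go uncalled. An example was Orc2 in Ndst1/2-/- against untreated cells (-0.26 ± 0.11; limma, adjusted p = 0.0535).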
